A study of Mus musculus with 6 samples.

Results

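The genes Ly6a2, Ly6i, Ly6e, Ly6d, Ly6c2 and Ly6g belong to the Ly6 family of small cell-surface proteins. These 6 genes were taken by their annotated symbol from arrays of 3 sorted mouse bone marrow populations, and 5 of them had a probe set that names only that gene, out of 19938 genes measured in this way. Both probe sets that name Ly6c2 also name its near copy Ly6c1, so Ly6c2 has no value here. The 6 genes were picked with their levels in these arrays known, Ly6a2 and Ly6i because they stood out in GM-BMM. Their levels over the 3 populations are therefore given as a description, without a test.

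Each population was measured on 2 arrays, from samples that the labels call biological replicates. GM-BMM were macrophages sorted as MHCIIlowF4/80high from marrow kept for 7 days with 25 ng/ml of GM-CSF, a myeloid growth factor, and GM-BMDC were dendritic cells sorted as MHCIIhighF4/80low from marrow kept in the same way. M-BMM were macrophages sorted as positive for CD11b and for the same macrophage antigen, the product of Adgre1, after 7 days in 20% L cell conditioned medium, which supplies M-CSF along with whatever else those cells secrete. All marrow came from C57BL/6J mice labelled male and 6 to 10 weeks old. How many animals or cultures a replicate came from is not stated in the labels, so errors and p-values measure the spread between these samples. Values are RMA signals on the log2 scale, and since the files mark no background, a mean is called low where it is below 5.04, the 25th percentile over the whole table. In bulk RNA, fewer cells of a type and less RNA per cell cannot be told apart.

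Ly6 proteins carry a LY6/uPAR domain, a three-fingered fold held by disulfide bonds, and most are tied to the outer membrane by a glycosylphosphatidylinositol (GPI) anchor. They are used above all as surface markers: Ly6C marks inflammatory monocytes, Ly6G neutrophils, and Sca-1, the product of Ly6a, blood stem cells and activated lymphocytes. Several family genes are known to respond to interferon.

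The genes of the sort gates followed the labels. H2-Ab1, a class II gene, measured 10.08 and 11.27 in GM-BMM, 13.09 and 13.17 in GM-BMDC, and 5.81 and 6.35 in M-BMM. Adgre1 averaged 12.46 in GM-BMM, 10.15 in GM-BMDC and 12.76 in M-BMM. The mean of 7 dendritic cell markers was 6.97 to 7.02 in GM-BMM, 9.42 to 9.78 in GM-BMDC and 6.41 to 6.49 in M-BMM, and the mean of 6 macrophage markers was 11.60 to 11.78 in GM-BMM, 9.83 to 10.64 in GM-BMDC and 11.20 to 11.29 in M-BMM. The arrays did not all follow the label male. Xist, an RNA of female cells, was high in GM-BMM replicate 1 (11.58) and in both GM-BMDC arrays (11.66 and 10.68), and the Y-linked Eif2s3y was low in GM-BMM replicate 1 (3.66) and GM-BMDC replicate 1 (3.94). Differences are therefore also given without both GM-CSF arrays numbered 1.

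Ly6a2 and Ly6i had one pattern: a high signal in both GM-BMM arrays and a signal about 4 log2 units lower in the GM-BMDC and M-BMM arrays. Both encode relatives of Sca-1 and Ly6C. Ly6a2 measured 12.33 and 11.86 in GM-BMM, 7.76 and 8.03 in GM-BMDC, and 7.94 and 7.84 in M-BMM. The GM-BMM arrays stood clear of the other 4, while GM-BMDC and M-BMM overlapped.

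GM-BMM exceeded GM-BMDC in Ly6a2 by 18.4-fold (log2 difference 4.20 ± 0.18, SE, n = 2 arrays in each population) and M-BMM by 18.5-fold (4.21 ± 0.18). GM-BMDC and M-BMM differed by 0.00 ± 0.18 on the log2 scale. Without both GM-CSF arrays numbered 1, the log2 differences of GM-BMM were 3.83 against GM-BMDC and 3.97 against M-BMM. The 4 arrays then left all carried Y-linked RNA, with Eif2s3y at 8.80 or above, but GM-BMDC replicate 2 among them also had Xist at 10.68, so the mismatch with the label remains in the comparison with GM-BMDC.

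Ly6i measured 12.59 and 12.64 in GM-BMM, 8.25 and 8.35 in GM-BMDC, and 8.55 and 8.43 in M-BMM. Its GM-BMM arrays again stood apart, and they lay closer to each other than those of Ly6a2. GM-BMM exceeded GM-BMDC in Ly6i by 19.9-fold (4.31 ± 0.11) and M-BMM by 17.4-fold (4.12 ± 0.11). GM-BMDC lay 0.19 ± 0.11 below M-BMM on the log2 scale, with arrays that did not overlap, and -0.09 after a further normalization of the arrays by cyclic loess. Without both GM-CSF arrays numbered 1, Ly6i differed by 4.29 between GM-BMM and GM-BMDC and by 4.15 between GM-BMM and M-BMM.

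By the size of the difference, Ly6i ranked 8 and Ly6a2 10 from the top of 19938 genes in GM-BMM minus GM-BMDC, and Ly6a2 ranked 19 and Ly6i 21 in GM-BMM minus M-BMM. The 2 comparisons share the GM-BMM arrays, so the ranks are not separate observations. Of the 5 measured members, 4 (Ly6a2, Ly6i, Ly6e and Ly6g) had both GM-BMM arrays above all 4 other arrays, a pattern that 9.46% of all genes had. These values chose the members, so nothing is read from that count.

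**Figure D1:**
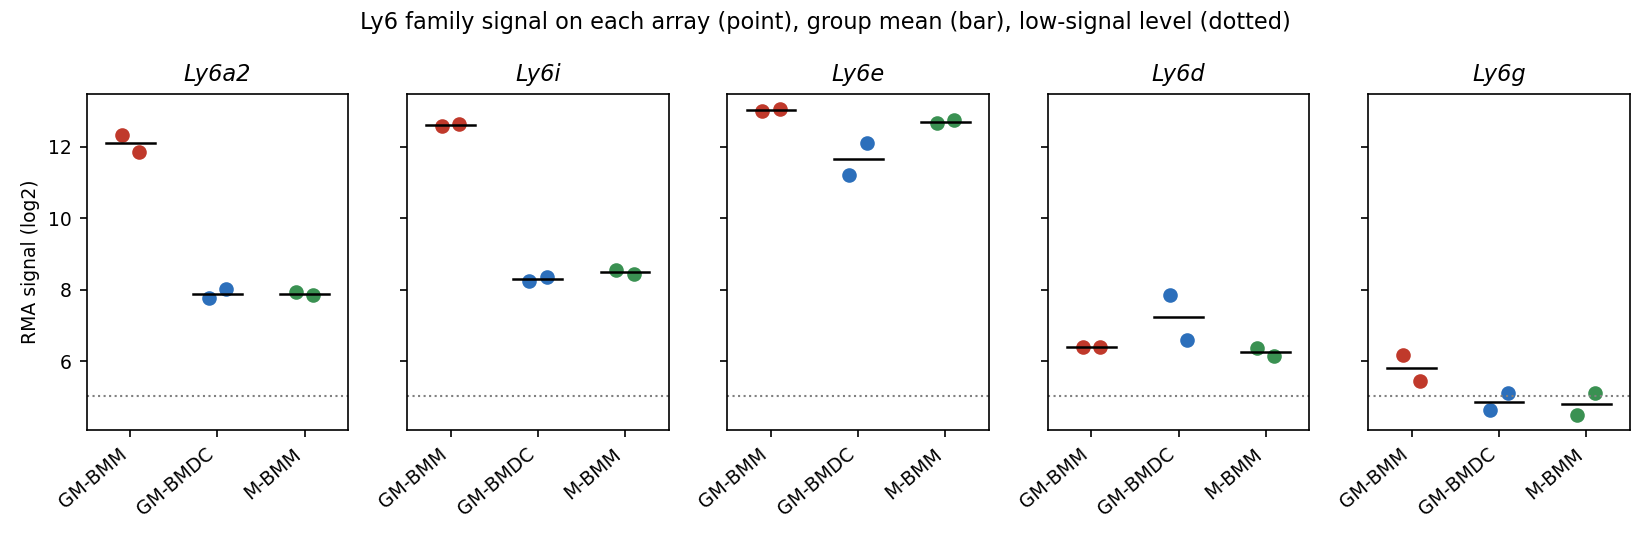
RMA signal (log2) of the 5 measured Ly6 genes on each of the 6 arrays, with GM-BMM on the left, GM-BMDC in the middle and M-BMM on the right of each panel. Points are arrays, bars are means of 2 arrays and the dotted line is the low-signal level of 5.04. Ly6a2 and Ly6i lie at 11.86 or above in GM-BMM and at 8.55 or below in the other populations, whereas Ly6e is at 11.22 or above in every array.

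The start regions of Ly6a2 and its neighbours are shown because these are related genes of the same cluster. The log2 differences of GM-BMM were about 4 in Ly6a2 and 1.02 or less in Ly6g and Ly6f. Windows from 250 bases before to 50 bases after a transcript start were read from RefSeq (GRCm38.p6) for Ly6a2, Ly6c2, Ly6g and Ly6f, where Ly6f is a relative of the same cluster. Where RefSeq gave 2 starts, the window most alike to that of Ly6a2 was taken. Capitals mark AGGAAGT, a form of the core bound by ETS factors such as PU.1, the myeloid master regulator.
Ly6a2 (chr15:75135079-75135378, minus strand): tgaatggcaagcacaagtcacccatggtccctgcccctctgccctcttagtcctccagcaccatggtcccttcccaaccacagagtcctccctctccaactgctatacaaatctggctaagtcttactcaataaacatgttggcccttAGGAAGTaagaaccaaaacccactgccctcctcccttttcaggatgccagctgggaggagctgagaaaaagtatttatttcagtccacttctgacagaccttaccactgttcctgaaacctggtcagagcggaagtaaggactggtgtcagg
Ly6c2 (chr15:75111922-75112221, minus strand): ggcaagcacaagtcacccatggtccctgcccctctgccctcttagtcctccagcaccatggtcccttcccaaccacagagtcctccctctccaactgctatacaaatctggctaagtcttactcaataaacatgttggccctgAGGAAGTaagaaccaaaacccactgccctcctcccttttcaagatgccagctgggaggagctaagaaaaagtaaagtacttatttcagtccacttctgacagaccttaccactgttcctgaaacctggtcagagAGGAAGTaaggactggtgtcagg
Ly6g (chr15:75155079-75155378, plus strand): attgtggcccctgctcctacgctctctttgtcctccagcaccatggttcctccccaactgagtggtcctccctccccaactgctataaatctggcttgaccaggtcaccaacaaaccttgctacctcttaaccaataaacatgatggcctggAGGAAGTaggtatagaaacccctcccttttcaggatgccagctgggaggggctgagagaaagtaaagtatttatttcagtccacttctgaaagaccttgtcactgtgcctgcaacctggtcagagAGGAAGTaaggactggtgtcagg
Ly6f (chr15:75268171-75268470, plus strand): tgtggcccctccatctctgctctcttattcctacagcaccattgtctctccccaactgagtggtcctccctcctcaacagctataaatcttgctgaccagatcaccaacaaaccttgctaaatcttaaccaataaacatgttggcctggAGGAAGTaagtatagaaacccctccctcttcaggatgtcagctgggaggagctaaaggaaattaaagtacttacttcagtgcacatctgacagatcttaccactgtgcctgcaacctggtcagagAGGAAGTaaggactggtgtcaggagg

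The windows of Ly6a2 and Ly6c2 were identical at 291 of 300 bases in a global alignment. Ly6a2 shared 235 bases with Ly6g and 232 with Ly6f, and Ly6g and Ly6f shared 263. AGGAAGT, searched on both strands, began 102 bases before the start in Ly6a2, 107 in Ly6c2, 98 in Ly6g and 101 in Ly6f. A second match, 27 bases after the start in Ly6c2 and Ly6g and 24 in Ly6f, was not found in Ly6a2. Between the same flanking bases the Ly6a2 window reads cggaagt, which differs from the motif only in its first base and was not counted as a match. Of 32851 RefSeq windows of this length, 9.35% held AGGAAGT. A core of the interferon-stimulated response element, GAAA followed after any 2 bases by GAAA, was in none of the 4 windows and in 3.44% of all windows. TTCNNNGAA, a STAT element, was in none of the 4 and in 8.3% of all. No pair of these motifs overlaps in the 4 windows, since only AGGAAGT was found. These matches describe letters in the windows. The probe sequences were not used here, so signal shared between such similar transcripts was not tested.

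Ly6a2 and Ly6i were also each other's nearest gene. Likeness was measured as the root mean square difference over the 6 arrays after each gene was centred on its own mean, and Ly6a2 and Ly6i lay 0.178 log2 units apart. The pair was chosen for standing out in GM-BMM, which is the pattern this measure reads, so the likeness is a description. After Ly6i, the genes closest to Ly6a2 were Arg1, which encodes the arginase of alternatively activated macrophages (0.314), the long non-coding RNA gene Mirt2 (0.355), the potassium channel gene Kcnn3 (0.381) and Ptges, a prostaglandin E synthase gene (0.411). Those closest to Ly6i after Ly6a2 were Ptges (0.335), Arg1 (0.361), Mirt2 (0.392) and Susd2, which encodes a sushi-domain membrane protein (0.433).

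Arg1 measured 9.23 and 8.67 in GM-BMM, 5.37 and 5.34 in GM-BMDC, and 5.35 and 5.43 in M-BMM. Ptges measured 10.60 and 10.54 in GM-BMM, 6.52 and 6.49 in GM-BMDC, and 7.42 and 7.01 in M-BMM. In both genes the GM-BMM arrays stood clear of the others, and in Ptges the M-BMM arrays lay above those of GM-BMDC.

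**Figure D2:**
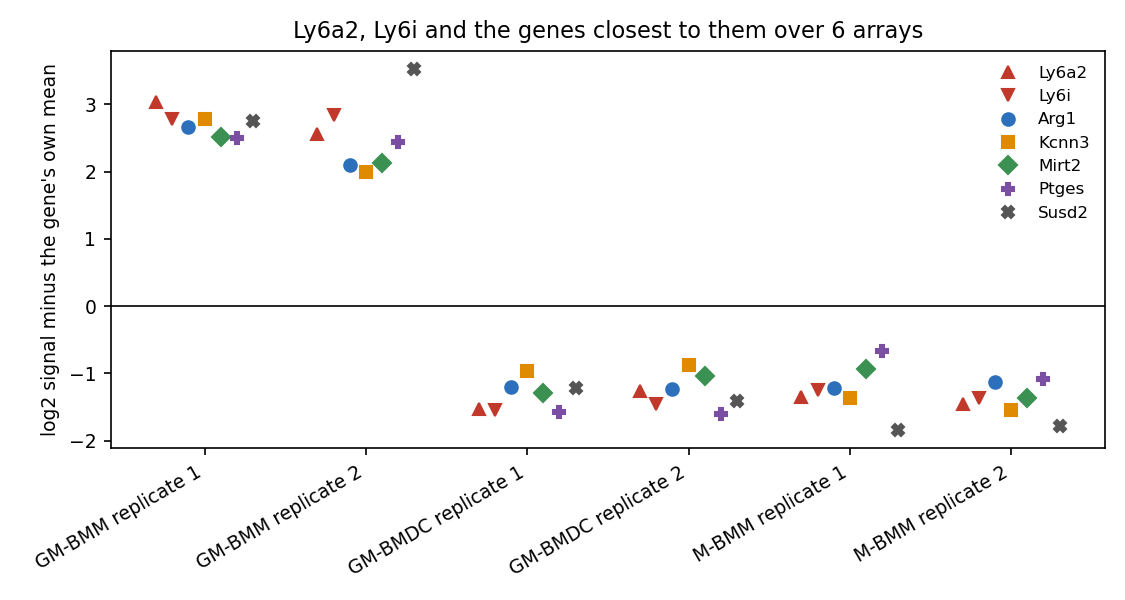
Signal (log2) of each gene minus its own mean over the 6 arrays, for Ly6a2, Ly6i and the 5 genes named as closest to either. Each point is 1 array, with GM-BMM arrays on the left, and all 7 genes lie above 0 in both GM-BMM arrays and below 0 in the other 4.

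Ly6e, which encodes a widely expressed member that limits the entry of several viruses and serves in the mouse placenta as a receptor for syncytin-A, had another order. It measured 13.02 and 13.07 in GM-BMM, 11.22 and 12.11 in GM-BMDC, and 12.66 and 12.76 in M-BMM. Both macrophage populations were high and GM-BMDC was lowest, with no overlap between any of the 3 populations. GM-BMM exceeded GM-BMDC by 2.60-fold (1.38 ± 0.26) and M-BMM by 1.26-fold (0.33 ± 0.26), and GM-BMDC lay 2.06-fold (-1.04 ± 0.26) below M-BMM. The GM-BMDC arrays differed most, with an SD of 0.63 (n = 2), against 0.03 in GM-BMM and 0.06 in M-BMM. The error of 0.26 pools all 3 populations. Without GM-BMDC replicate 1 the log2 difference from GM-BMM was 0.93 and without replicate 2 it was 1.82. Without both GM-CSF arrays numbered 1 it was 0.96, and GM-BMDC then lay -0.60 from M-BMM.

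Ly6d, known as a mark of lymphoid progenitors that commit to the B lineage, was highest in 1 array. It measured 6.40 and 6.39 in GM-BMM, 7.86 and 6.59 in GM-BMDC, and 6.36 and 6.15 in M-BMM. GM-BMDC replicate 1 was the high array, and the other 5 arrays lay between 6.15 and 6.59. The log2 difference of GM-BMM from GM-BMDC was -0.83 ± 0.35, but -0.20 without GM-BMDC replicate 1 and -1.47 without GM-BMDC replicate 2. GM-BMDC lay 0.97 ± 0.35 above M-BMM, or 0.34 without GM-BMDC replicate 1. GM-BMM and M-BMM differed by 0.14 ± 0.35, less than their error. Beside it, the mean of 7 B lymphocyte markers was 5.43 and 5.52 in GM-BMM, 6.60 and 6.01 in GM-BMDC, and 5.91 and 6.02 in M-BMM, also highest in GM-BMDC replicate 1. The list did not move as a whole: Cd79a, Ms4a1, Pax5 and Ebf1 had their highest mean in GM-BMDC, Cd79b and Vpreb1 in M-BMM, and Vpreb3 in GM-BMM. Cd79a, a part of the B cell receptor, measured 3.99 and 4.49 in GM-BMM, 7.15 and 6.23 in GM-BMDC, and 4.73 and 4.49 in M-BMM. Its partner Cd79b measured 7.69 and 7.95 in GM-BMM, 8.49 and 7.32 in GM-BMDC, and 10.16 and 10.21 in M-BMM. The part of such cells in the Ly6d signal was not tested.

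Ly6g, whose product is the standard neutrophil marker of the mouse, had a low mean in 2 of the 3 populations. It measured 6.18 and 5.45 in GM-BMM, 4.62 and 5.12 in GM-BMDC, and 4.49 and 5.10 in M-BMM. The GM-BMM arrays were the highest, and the low means were those of GM-BMDC (4.87) and M-BMM (4.80). The log2 difference of GM-BMM was 0.95 ± 0.30 from GM-BMDC and 1.02 ± 0.30 from M-BMM, and GM-BMDC differed from M-BMM by 0.07 ± 0.30. Without both GM-CSF arrays numbered 1, the difference from GM-BMDC was 0.33 and that from M-BMM 0.65. The 12 neutrophil markers had a mean of 7.18 and 6.68 in GM-BMM, 6.32 and 6.47 in GM-BMDC, and 6.68 and 6.55 in M-BMM. The array with the highest Ly6g, GM-BMM replicate 1, was also the highest here, but the list did not move as a whole. Of the 12 markers, 7 had their highest mean in GM-BMM, 4 in M-BMM and 1 in GM-BMDC. The shares over all genes were not counted, so nothing is read from these counts. Mmp8 averaged 12.35 in GM-BMM, 10.49 in GM-BMDC and 8.47 in M-BMM, whereas Csf3r averaged 9.69, 6.69 and 10.55. Of the 12 markers, 1 was low in GM-BMM, 2 in GM-BMDC and 2 in M-BMM, with Cxcr2 low in every array. The part of neutrophil RNA was not tested.

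The 7 monocyte markers measured had a mean of 8.81 and 8.86 in GM-BMM, 6.82 and 7.11 in GM-BMDC, and 7.25 and 6.90 in M-BMM, and none had a low mean in any population. Of the 7, 6 had their highest mean in GM-BMM, and Ccr2, the receptor that draws monocytes from the marrow, had it in GM-BMDC. The share of all genes with their highest mean in GM-BMM was not counted, so nothing is read from this. F13a1 was 7.27 in GM-BMM replicate 2, below both M-BMM arrays (8.17 and 7.59). Fcnb averaged 6.50 in GM-BMM, 6.20 in GM-BMDC and 6.19 in M-BMM. Hp, which encodes haptoglobin, averaged 11.36 in GM-BMM, 7.11 in GM-BMDC and 8.01 in M-BMM. The fractalkine receptor gene Cx3cr1 was raised in GM-BMM replicate 2 (9.77) and not in replicate 1 (6.94). The part of monocyte RNA in the Ly6a2 and Ly6i signals was not tested. Stem and progenitor cells are the setting in which Sca-1 is best known. Their 7 measured markers averaged 6.21 and 6.01 in GM-BMM, 7.04 and 6.92 in GM-BMDC, and 5.82 and 5.87 in M-BMM. Of these 7, 6 had their highest mean in GM-BMDC and 1 in GM-BMM. Among the 6, Mecom averaged 5.10 in GM-BMDC and 5.08 in M-BMM. The share of all genes with their highest mean in GM-BMDC was not counted either, so nothing is read from this. The part of progenitor RNA in the Ly6 signals was not tested. The mean of the 6 plasmacytoid dendritic cell markers measured lay between 6.90 and 7.26 on every array. Single markers did not stay in that range, and 2 had their highest mean in each population. Of the 7 T and NK lymphocyte markers, 4 were low in all 6 arrays. The highest mean was in GM-BMDC for 5 of them, in GM-BMM for 1 and in M-BMM for 1, and nothing is read from this count. Cd8a measured 5.50 and 5.90 in GM-BMM, 7.12 and 6.55 in GM-BMDC, and 5.56 and 5.80 in M-BMM.

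The family's main gene cluster lies on mouse chromosome 15. RefSeq places 29 protein-coding genes on it from Psca to Gpihbp1, of which 21 had a single-gene probe set. In RefSeq order, the stretch around the members runs Ly6m, Ly6e, Ly6i, Ly6a, Ly6c1, Ly6c2, Ly6a2, Ly6g, Ly6g2 and Ly6f. Ly6i and Ly6a2 are thus separated by Ly6a, Ly6c1 and Ly6c2, which were not measured by a single-gene probe set. Among the 16 measured genes of the cluster that are not members, the signal lay between 4.52 and 6.84 on every array. The largest absolute log2 difference of GM-BMM among them was 0.70 from GM-BMDC and 0.62 from M-BMM. Both belonged to Ly6f, which measured 5.59 and 6.23 in GM-BMM, 5.20 and 5.21 in GM-BMDC, and 5.29 and 5.30 in M-BMM. Ly6f was the only gene of the 16 with both GM-BMM arrays above the other 4, and it did not pass the test in either comparison (limma adjusted p = 0.066 and 0.129). Of the 16, 0 passed in any of the 3 comparisons by limma, where 10.4% of all genes passed in GM-BMM minus GM-BMDC, 6.19% in GM-BMM minus M-BMM and 16.7% between GM-BMDC and M-BMM. At an unadjusted p under 0.05 there were 2, 3 and 0, and with so few genes nothing is read from these counts.

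**Figure D3:**
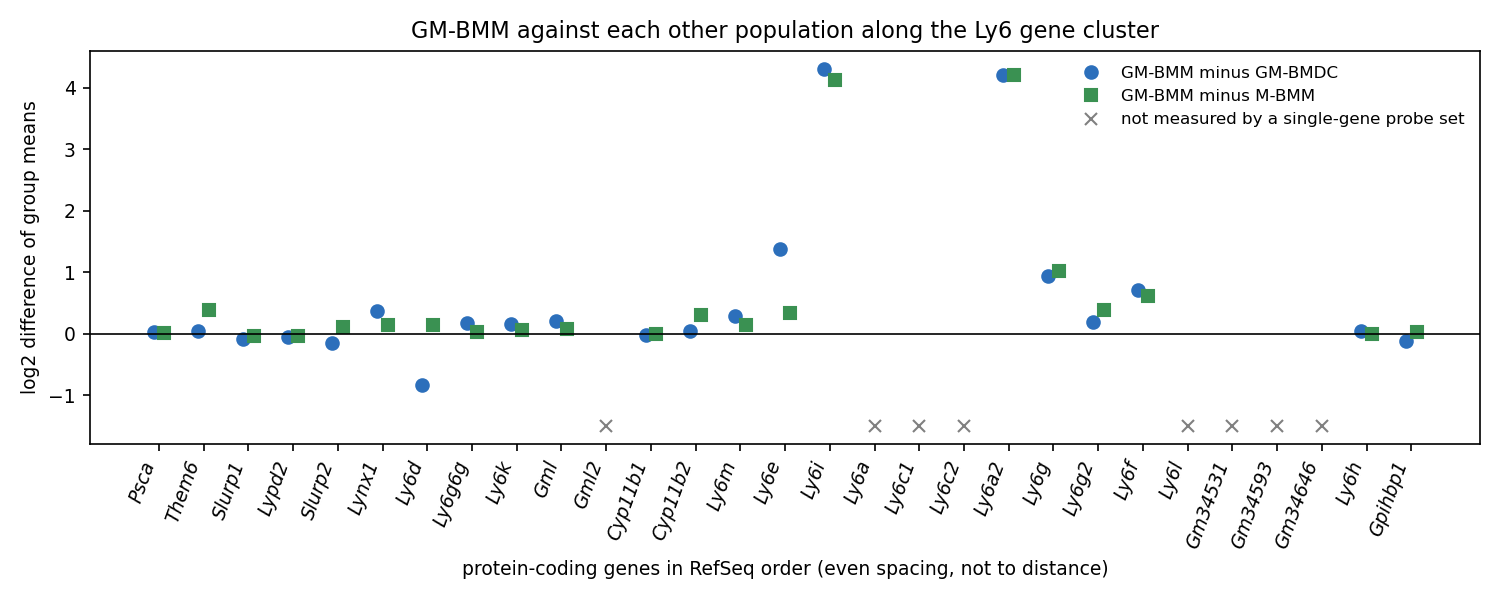
Log2 difference of group means, GM-BMM minus GM-BMDC (circles) and GM-BMM minus M-BMM (squares), for the 29 protein-coding genes from Psca to Gpihbp1 in RefSeq order, spaced evenly. Crosses mark the 8 genes not measured by a single-gene probe set. Ly6i and Ly6a2 stand above 4, and the largest absolute difference among measured genes that are not members is 0.70.

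The wider family was read from a list of 39 relatives with the LY6/uPAR domain, of which 33 were measured. Those that passed the test in any comparison were the complement regulators Cd59a and Cd59b and the urokinase receptor gene Plaur. In GM-BMM against GM-BMDC, 2 relatives were higher, 0 lower and 31 did not pass by limma, so 6.06% were called against 10.4% of all genes (5.74% higher and 4.69% lower). At an unadjusted p under 0.05, 4 were higher and 0 lower. In GM-BMM against M-BMM, 1 was higher and 0 lower, or 3.03% against 6.19% of all genes (3.62% higher and 2.57% lower), and at an unadjusted p under 0.05, 4 were higher and 0 lower. Between GM-BMDC and M-BMM, 1 was higher in GM-BMDC and 1 lower, or 6.06% against 16.7% of all genes (7.76% higher and 8.9% lower). The median log2 difference of the relatives was 0.02, 0.07 and 0.04 in these comparisons, while that of all genes was -0.02, -0.02 and 0.00.

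Cd59a, whose product blocks the membrane attack complex of complement, measured 7.72 and 7.01 in GM-BMM, 6.24 and 6.10 in GM-BMDC, and 7.75 and 7.89 in M-BMM. GM-BMDC was the lowest population, without overlap. Cd59a was higher in GM-BMM than in GM-BMDC by 2.28-fold (1.19 ± 0.22, limma adjusted p = 0.0148), and lower in GM-BMDC than in M-BMM by 3.13-fold (-1.64 ± 0.22, limma adjusted p = 0.00238). Its paralog Cd59b averaged 5.43 ± 0.35 in GM-BMM and 4.70 ± 0.10, a low mean, in GM-BMDC (SD, n = 2 each), and was 1.66-fold higher in GM-BMM (0.73 ± 0.17, limma adjusted p = 0.037). The calls of both genes against GM-BMDC were lost whichever GM-BMDC array was left out. They were also lost in the fit of only these groups (limma adjusted p = 0.0501 for Cd59a and 0.0915 for Cd59b). For this comparison, leaving out either M-BMM array gives that same fit. That of Cd59b also ended without GM-BMM replicate 1, alone (0.109) or with GM-BMDC replicate 1 (0.0824).

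Plaur, which encodes the receptor that holds urokinase at the cell surface, was high in both GM-CSF populations. It measured 10.88 and 9.26 in GM-BMM, 10.27 and 10.40 in GM-BMDC, and 7.70 and 7.53 in M-BMM. The GM-BMM arrays lay on both sides of the GM-BMDC arrays, and M-BMM was clear below. Plaur was 5.48-fold higher in GM-BMM than in M-BMM (2.45 ± 0.44, limma adjusted p = 0.0191) and 6.60-fold higher in GM-BMDC than in M-BMM (2.72 ± 0.44, limma adjusted p = 0.00565, n = 2 each). The first call ended with a trended and robust variance (limma adjusted p = 0.0722) and without either M-BMM array (0.144 and 0.177). The second ended without either M-BMM array (0.0581 and 0.0634). Without GM-BMM replicate 1, 3 relatives passed between GM-BMM and M-BMM. Leaving out GM-BMM replicate 1 or 2 moved the log2 difference of Plaur between GM-BMM and M-BMM to 1.64 or 3.27.

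Since several Ly6 genes respond to interferon, the members were set beside 31 measured genes of the type I interferon response. In GM-BMM against GM-BMDC, 24 of the 31 were higher and 0 lower by limma (77.4% called, against 10.4% of all genes), and 28 higher and 0 lower at an unadjusted p under 0.05. The largest increases were in Ifit3 (3.40 ± 0.44), Irf7 (3.09 ± 0.26) and Oas2 (3.08 ± 0.22). Their limma adjusted p-values were 0.00352, 0.000632 and 0.000363. Mx1 had the lowest difference of the list (-0.79), with a mean of 8.65 in GM-BMM and 9.45 in GM-BMDC, and did not pass. Between GM-BMDC and M-BMM, 0 were higher in GM-BMDC and 22 lower (71%, against 16.7% of all genes), and 1 higher and 23 lower at an unadjusted p under 0.05. Without M-BMM replicate 1 or 2, 12 and 14 passed in that comparison. The largest decrease was in Ifit3 (-3.51 ± 0.44, limma adjusted p = 0.00183). Ifit2, which encodes an RNA-binding antiviral protein, followed (-3.39 ± 0.40, limma adjusted p = 0.00138). Oas2 was next (-3.38 ± 0.22, limma adjusted p = 0.000146). Between the macrophage populations 1 of 31 passed (3.23%, against 6.19% of all genes): Oas3, a sensor of double-stranded RNA, was 2.07-fold higher in GM-BMM (1.05 ± 0.22, limma adjusted p = 0.0333). At an unadjusted p under 0.05, 6 of the list were higher in GM-BMM than in M-BMM and 0 lower. Without both GM-CSF arrays numbered 1, 12 of the 31 were higher in GM-BMM than in M-BMM. Without GM-BMM replicate 1 alone 5 passed, all higher in GM-BMM, and without GM-BMM replicate 2 alone 1 was higher and 2 were lower. Oas3 did not pass in the fit of only these 2 populations (limma adjusted p = 0.0503), nor without either M-BMM array (0.176 and 0.234).

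The median log2 difference of the interferon list was 1.46 in GM-BMM minus GM-BMDC, 0.19 in GM-BMM minus M-BMM and -1.16 in GM-BMDC minus M-BMM. Ly6e gave 1.38, 0.33 and -1.04 in the same comparisons. Ly6i gave 4.31, 4.12 and -0.19, and Ly6a2 gave 4.20, 4.21 and 0.00. Ly6e thus lay near the middle of the interferon genes in both comparisons with GM-BMDC. In GM-BMM minus M-BMM it lay above their median, at 0.33 against 0.19, and below the highest of them. Ly6a2 and Ly6i lay above the highest of them in both comparisons of GM-BMM (3.40 and 1.05). The comparisons share arrays, and the members were chosen on these values, so this is a description.

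**Figure D4:**
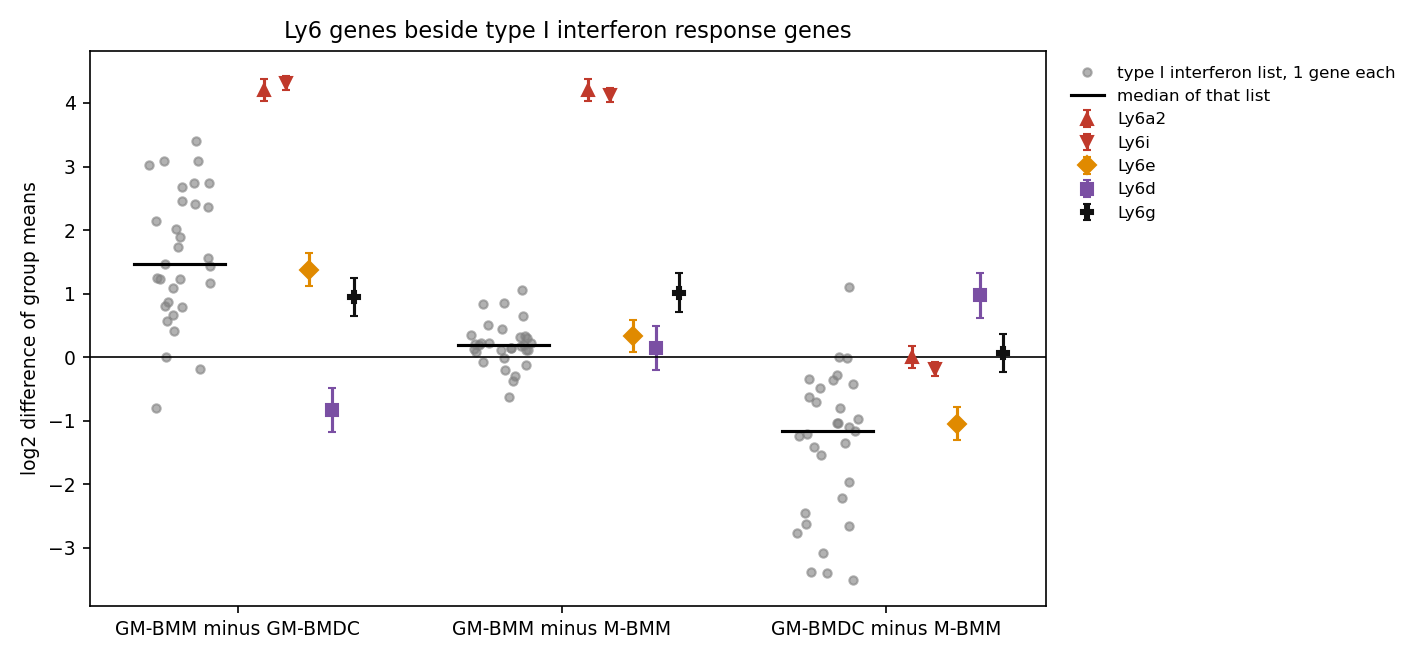
Log2 difference of group means in the 3 comparisons for 31 type I interferon response genes (grey points, 1 per gene, with their median as a bar) and for the 5 measured Ly6 genes (symbols, with the SE from limma). Ly6a2 and Ly6i lie above all grey points in both comparisons of GM-BMM. Ly6e lies close to the median of the list in both comparisons with GM-BMDC and above it in GM-BMM minus M-BMM.

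The 31 genes that build, transfer or remodel the GPI anchor were read as the machinery on which the family depends. The share called in the comparisons of GM-BMM was near that of all genes. In GM-BMM against GM-BMDC, 2 were higher, 2 lower and 27 did not pass, 12.9% called against 10.4% of all genes. Pigb, a mannosyltransferase gene of the pathway, was 1.72-fold higher (0.78 ± 0.11, limma adjusted p = 0.00459) and Gpaa1, a subunit of the transamidase that attaches the anchor, 1.51-fold higher (0.59 ± 0.13, limma adjusted p = 0.0317). Pgap6, which encodes a phospholipase that releases some anchored proteins, was 1.76-fold lower (-0.82 ± 0.16, limma adjusted p = 0.0189), and Pigx, a cofactor of the first mannosyltransferase, 1.62-fold lower (-0.69 ± 0.13, limma adjusted p = 0.0157). Of these 4 calls, only that of Pigb was kept when either GM-BMM replicate 2 or GM-BMDC replicate 1 was left out. That of Gpaa1 was also lost without GM-BMM replicate 1, without either M-BMM array and in the fit of only these groups (limma adjusted p = 0.0806), and that of Pigx without GM-BMDC replicate 2 (0.0538).

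In GM-BMM against M-BMM, 0 GPI anchor genes were higher and 2 lower by limma, 6.45% against 6.19% of all genes, with 4 higher and 3 lower at an unadjusted p under 0.05. Pgap6 measured 3.59-fold lower (-1.84 ± 0.16, limma adjusted p = 0.000811) and Pign, an ethanolamine phosphate transferase gene, 1.46-fold lower (-0.54 ± 0.12, limma adjusted p = 0.041), a call lost with cyclic loess (limma adjusted p = 0.0508) and whenever a single GM-BMM or M-BMM array was left out (0.0604 to 0.246). Between GM-BMDC and M-BMM, 1 was higher in GM-BMDC and 7 lower, 25.8% against 16.7% of all genes. Pigx was 1.63-fold higher (0.71 ± 0.13, limma adjusted p = 0.00964), and the largest decreases were in Pigz, a further mannosyltransferase gene (-1.04 ± 0.28, limma adjusted p = 0.0447), Pgap6 (-1.03 ± 0.16, limma adjusted p = 0.00476) and Pigu, another transamidase subunit (-0.64 ± 0.13, limma adjusted p = 0.0151). The call of Pigz was lost with the trended and robust variance (0.0674), with cyclic loess (0.0558) and whenever a single GM-BMDC or M-BMM array was left out (0.071 to 0.268). That of Pigu was lost without GM-BMDC replicate 1 (0.0736), alone or with GM-BMM replicate 1 (0.0504), and without either M-BMM array (0.0939 and 0.103). Those of Pgap6 and Pigx were each lost without 1 of the M-BMM arrays (0.0594 and 0.0838). In all, 3 genes of the list passed in this comparison without GM-BMDC replicate 1, and 1 without either M-BMM array. Over the list, the median log2 difference was 0.17, -0.09 and -0.14 in the 3 comparisons.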

How the data were processed

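RNA of 6 samples, 300 ng each, was hybridised to 1 Affymetrix array per sample. The deposited values are log2 signals that the authors made with Affymetrix Expression Console 1.1 and RMA, per the submitters' processing notes, and RMA subtracts background, gives every array 1 shared distribution and turns the probes of each set into 1 value. The table held 35556 probe sets, 21789 with exactly 1 annotated gene, 1621 with several and 12146 unnamed. The probe set with the highest mean was kept per gene, as 999 genes had several, which left 19938 genes. The array annotation can be old and its genome build is not given in the sources used here, so coordinates are those of RefSeq windows (GRCm38.p6) only. With only 2 arrays in a group, a log2 difference had a median standard error of 0.132, and no read depth applies.

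All 6 arrays entered a single limma fit (version 3.58.1, R 4.3.3) (3 residual and 4.34 prior degrees of freedom, two-sided, Benjamini-Hochberg over all genes at 0.05), with no filter on low values. The fit was tested on simulated data. Members and lists were chosen with earlier results of these data known. The text names all members, every relative past the threshold in any comparison, up to 3 genes per comparison and direction from each of the other 2 lists, the 5 genes closest to Ly6a2 and to Ly6i (leaving out predicted and clone names), and genes that check the labels. Ly6f, Cxcr2, Mmp8, Csf3r, Mecom, Cd8a, Mx1 and the B lymphocyte and monocyte markers were named after their values were seen. Of the GPI anchor list, 1 name was matched through a synonym. Alternatives left out arrays, blocked on replicate number, fitted only the groups compared, and changed the variance model, the filter, the normalization and the probe set rule. Groups of 2 are too small for a permutation test of single values. Alignment and tables used Biopython 1.88, pandas 2.3.3, NumPy 2.4.6 and matplotlib 3.10.9 in Python 3.11.15.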

Additional observations from a re-analysis of the deposited data

How the results depend on the processing

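The main fit did not pair the samples by replicate number. Deviations of same-numbered arrays from group means correlated at 0.02 between GM-BMM and GM-BMDC, 0.03 between GM-BMM and M-BMM and -0.13 between GM-BMDC and M-BMM. With 2 arrays in a group, these values cannot decide whether the numbers pair the samples. Eif2s3y matched by number in the GM-CSF arrays, at 3.66 and 3.94 in those numbered 1 and 9.10 and 8.80 in those numbered 2. Xist did not, at 4.93 in GM-BMM replicate 2 and 10.68 in GM-BMDC replicate 2. A shared source of same-numbered arrays was not tested, so fits with a replicate block are given as well. With the replicate block, 1963, 1176 and 3060 genes were called in GM-BMM minus GM-BMDC, in GM-BMM minus M-BMM, and in the remaining comparison, GM-BMDC minus M-BMM, against 2079, 1235 and 3323 without it, and 1 GPI anchor gene instead of 2 in GM-BMM minus M-BMM, where Pign did not pass (limma adjusted p = 0.0691). With the M-BMM numbers crossed in the block, which was chosen after seeing the data, the counts were 2002, 1121 and 3155, and that GPI count was again 1, without Pign (limma adjusted p = 0.0644).

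Leaving out each array in turn gave 1102 to 2055, 319 to 1347 and 1288 to 3412 calls over all genes, 0 to 3, 0 to 3 and 1 to 2 over the relatives, 18 to 26, 0 to 5 and 12 to 24 over the interferon list, and 1 to 4, 1 to 3 and 1 to 9 over the GPI anchor list. An array left alone in its group is assumed to vary like the others. For the members, it gave log2 differences in GM-BMM minus GM-BMDC of 3.97 to 4.44 for Ly6a2, 4.26 to 4.36 for Ly6i, 0.93 to 1.82 for Ly6e, -1.47 to -0.20 for Ly6d and 0.58 to 1.32 for Ly6g. In GM-BMM minus M-BMM these were 3.97 to 4.44, 4.07 to 4.18, 0.29 to 0.38, 0.04 to 0.25 and 0.65 to 1.39, and in GM-BMDC minus M-BMM -0.13 to 0.13, -0.25 to -0.14, -1.49 to -0.60, 0.34 to 1.61 and -0.23 to 0.37.

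With only the groups compared, GM-BMM minus GM-BMDC had 1207 calls over all genes and 0 over the relatives. In GM-BMM minus M-BMM, the trended and robust variance called 0 relatives and 2 interferon genes, the filter on low values 2 interferon and 4 GPI anchor genes, and cyclic loess 2 interferon genes. Cyclic loess gave Ly6i -0.09 in GM-BMDC minus M-BMM. Without both GM-CSF arrays numbered 1 (1 residual degree of freedom), GM-BMM minus M-BMM had 3 relatives and 12 interferon genes called. The members then differed in GM-BMM minus GM-BMDC by 3.83 (Ly6a2), 0.96 (Ly6e), -0.21 (Ly6d) and 0.33 (Ly6g), in GM-BMM minus M-BMM by 3.97 (Ly6a2), and in GM-BMDC minus M-BMM by -0.60 (Ly6e) and 0.34 (Ly6d). The cause of these moves was not tested. Of 308 values of the named genes outside the members, 254 kept their direction and their limma call, and 54 kept the direction and lost the call. These values are not all separate, since leaving out an array of the population not compared gave the same fit as only the groups compared.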
